A study of Homo sapiens with 8 samples.

Results

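DKK1 and 9 further genes of Wnt signaling (DKK3, WNT5A, WNT5B, LRP5, LRP6, AXIN1, AXIN2, CTNNB1 and TCF7L2) were followed in MDA-MB-231 cells, an estrogen receptor–negative human breast cancer cell line, with and without exposure to carboxymethyllysine (CML), an advanced glycation end product formed from lysine. All 10 genes were found by symbol among the 17649 genes of the expression table. RNA-Seq covered 4 control cultures, to which buffer was added, and 4 cultures kept for 48 hours with CML at 1 μM, all in low-glucose medium. The labels call the exposed group NCML, and the replicates of each group carry the numbers 1 to 4. Nothing in the labels or methods says whether the replicates were set up on separate days, so the spread between them may be technical. The 10 genes were selected on the CPM values of these 8 libraries, control against CML, so that difference is described for them and not tested.

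Wnt proteins are secreted ligands that bind Frizzled receptors at the cell surface. Together with the coreceptors LRP5 and LRP6 they switch off a cytoplasmic complex, built on the AXIN scaffolds, that otherwise marks β-catenin for degradation. β-Catenin then enters the nucleus and activates genes with DNA-binding partners of the TCF/LEF family, among them feedback genes such as AXIN2 and DKK1. DKK1 is a secreted inhibitor that binds LRP5 and LRP6, and it is known in breast cancer for its study in metastasis to bone.

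The depth, estimated from the regular steps on which the deposited values fall, was between 16161809 and 18954738 reads per library, and a single read corresponded to 0.0535 to 0.0622 CPM (counts per 1e6 reads). VIM, a mesenchymal marker of this line, lay between 4014 and 4243 CPM and the epithelial cadherin gene CDH1 between 0.311 and 0.954 CPM, both as is known for this cell line. Of the other markers listed as low in this line, PGR lay between 0 and 0.114 CPM, EPCAM between 12.7 and 16.3 CPM and ERBB2 between 44.1 and 54.4 CPM, so these last genes were not near 0. The estrogen receptor gene ESR1, also listed as low, had no values and could not be checked. The leukocyte gene PTPRC and the liver gene ALB stayed below 0.651 CPM in every library, whereas PECAM1 lay between 2.36 and 3.84 CPM and COL1A1 between 9.40 and 13.3 CPM, with overlapping groups for all 4 of these genes. Control replicate 4 had the largest influence on the number of genes called in the comparison across all genes, as given below.

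The proximal promoter of DKK1 is shown first because DKK1 was the gene of the 10 whose levels separated the groups and because TCF/LEF factors are known to bind DNA with the core letters CTTTGA. It is the stretch of 250 bases that ends just before the transcription start of DKK1, at chr10:52314031-52314280 on the plus strand of GRCh38.p14 (sequence from RefSeq), with each match to CTTTGA or its other-strand form TCAAAG in capitals.
DKK1: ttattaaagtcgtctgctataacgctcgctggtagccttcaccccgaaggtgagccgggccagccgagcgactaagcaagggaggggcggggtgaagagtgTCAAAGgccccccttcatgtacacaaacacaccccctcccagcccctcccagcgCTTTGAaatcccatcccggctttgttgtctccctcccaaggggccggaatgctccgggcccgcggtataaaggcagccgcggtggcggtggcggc
The 2 matches begin 149 and 95 bases before the transcription start, and they do not overlap. Promoter windows were at hand for 7 of the 10 genes, 11 windows in all, and DKK1's was the 1 window with such a match. The form CTTTGT, which differs in its last letter and was not searched for, stands in DKK1's window and in a TCF7L2 window. DKK1's place as the 1 window with a match thus rests on the letters chosen. Of 35116 promoter windows of the same length, 11.2% held CTTTGA on either strand and 0.977% held 2 or more matches. The longer form CTTTGAT, which 2.26% of all windows held, was not among the letters of any of the 11 windows. The letters were chosen with the DKK1 sequence in view, and a match describes the sequence without saying that a factor binds it.

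DKK1 lies on chromosome 10 from 52314281 to 52317657 (GRCh38), and its transcript was among the abundant ones in these cells. The 4 control libraries had 236, 247, 232 and 238 CPM, and the 4 CML libraries had 266, 268, 257 and 277 CPM, in the order of their replicate numbers. Every CML library therefore stood above every control library, with a gap of 10.8 CPM between the highest control and the lowest CML library. Control cells averaged 238 ± 5.93 CPM and CML-exposed cells 267 ± 8.10 CPM (SD, n = 4 each). On the log2(CPM + 1) scale the difference was 0.16 with a standard error of 0.027. In bulk RNA a larger share of cells with DKK1 transcript and more DKK1 transcript per cell cannot be told apart. The values rested on 3844 to 5010 reads per library, for which counting error alone gives a coefficient of variation of 1.57% in control cells. The observed coefficients of variation were 2.49% in control and 3.03% in CML-exposed cells.

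**Figure D1:**
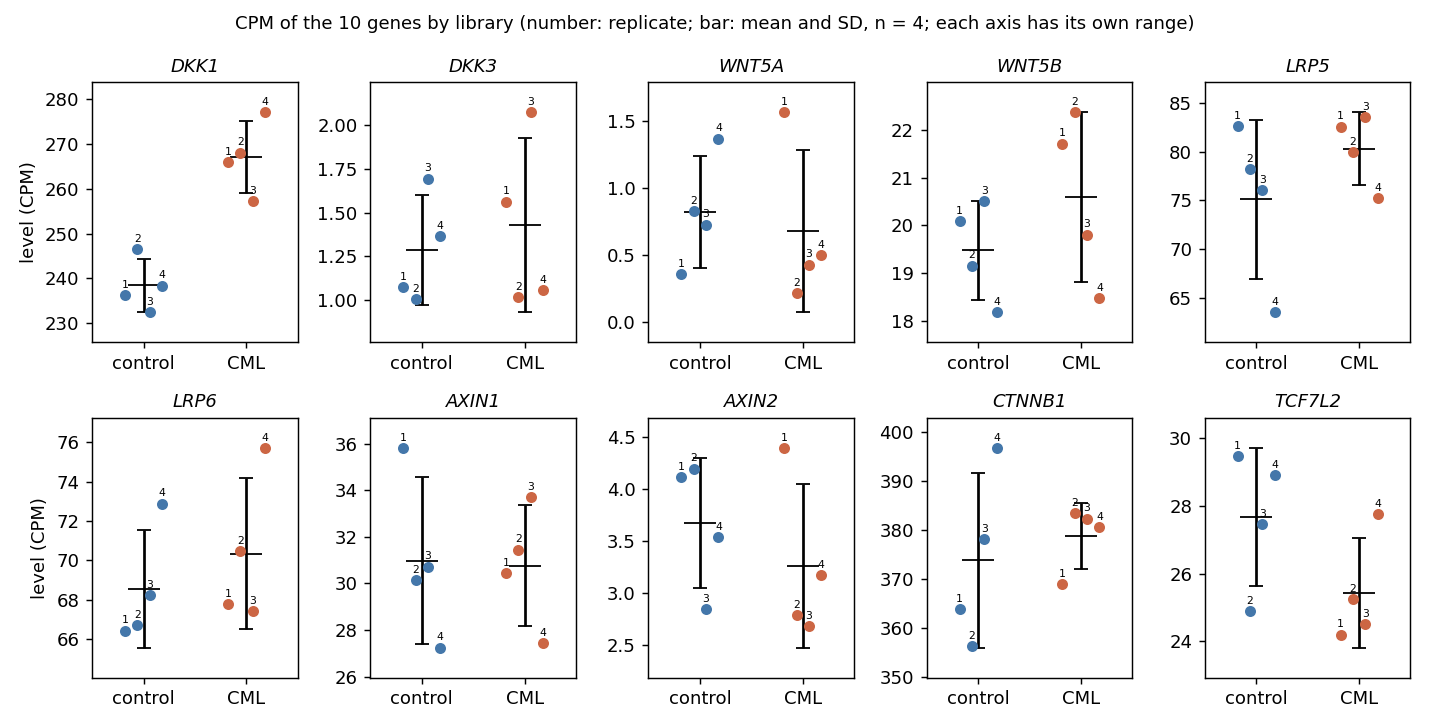
CPM of the 10 genes in each library, with the replicate number beside each point and the mean and SD (n = 4) as bars; each panel has its own vertical range. The CML points of DKK1, at 257 to 277 CPM, sit above all of its control points, at 232 to 247 CPM, while the points of the other 9 genes overlap between the groups.

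DKK3, a divergent relative of DKK1 on chromosome 11 from 11963036 to 12009745, had no more than 34 and no fewer than 17 reads in a library. Its control libraries had 1.07, 1.01, 1.69 and 1.37 CPM and its CML libraries 1.56, 1.02, 2.07 and 1.06 CPM. The groups overlapped over most of their range. In both groups replicate 3 was highest and replicate 2 lowest. Control cells averaged 1.28 ± 0.315 CPM and CML-exposed cells 1.43 ± 0.496 CPM (SD, n = 4 each). The log2 difference of 0.08 had a standard error of 0.16. USP47, a gene at 93.0 to 105 CPM, overlaps DKK3 on the opposite strand, and whether the counting of these libraries used strand is not given in the sources used here. The part of USP47 reads in the DKK3 values was not tested.

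Of the ligands, WNT5A and WNT5B encode closely related proteins known mainly for signaling that does not run through β-catenin. WNT5B, on chromosome 12 from 1617056 to 1647212, had 20.1, 19.2, 20.5 and 18.2 CPM in the control libraries and 21.7, 22.4, 19.8 and 18.5 CPM in the CML libraries. Its groups overlapped, and replicate 4 was the lowest library of both. The log2 difference was 0.07 with a standard error of 0.068. WNT5A, on chromosome 3 from 55465715 to 55505263, was the least abundant of the 10 genes, with 6, 14, 12 and 24 reads in the control libraries and 27, 4, 7 and 8 reads in the CML libraries. The highest CML library (replicate 1, 1.56 CPM) exceeded every control library and the lowest (replicate 2, 0.214 CPM) was below every control library, so no direction could be read. At this depth counting error alone gives a coefficient of variation of 26.7% in control cells, where 50.9% was observed. The log2 difference of −0.15 had a standard error of 0.27.

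The coreceptors LRP5 and LRP6 are cell-surface proteins that DKK1 binds. LRP5, on chromosome 11 from 68298412 to 68449275, had 82.6, 78.2, 76.1 and 63.5 CPM in control cells and 82.6, 79.99, 83.6 and 75.2 CPM in CML-exposed cells. The low value of control replicate 4 widened the control group to 75.1 ± 8.21 CPM (SD, n = 4), against 80.3 ± 3.73 CPM (SD, n = 4) with CML. The log2 difference of 0.10, with a standard error of 0.082, dropped to 0.02 without that library. LRP6, on chromosome 12 from 12116025 to 12267044, had 66.4, 66.7, 68.2 and 72.9 CPM in control cells and 67.8, 70.5, 67.4 and 75.7 CPM in CML-exposed cells. Here replicate 4 was the highest library of both groups. The means of 68.6 ± 3.00 and 70.3 ± 3.84 CPM (SD, n = 4 each) gave a log2 difference of 0.04 with a standard error of 0.046. Neither coreceptor separated the groups.

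AXIN1 and AXIN2 encode the scaffolds of the β-catenin destruction complex, and AXIN2 is a widely used readout of β-catenin activity. AXIN1, on chromosome 16 from 287440 to 352723, had 35.8, 30.2, 30.7 and 27.2 CPM in control cells and 30.5, 31.5, 33.7 and 27.4 CPM in CML-exposed cells. The means were 31.0 ± 3.57 and 30.8 ± 2.60 CPM (SD, n = 4 each), a log2 difference of −0.01 with a standard error of 0.093. AXIN2, on chromosome 17 from 65528563 to 65561648, had 4.11, 4.197, 2.84 and 3.53 CPM in control cells and 4.40, 2.78, 2.68 and 3.17 CPM in CML-exposed cells. The highest AXIN2 value belonged to CML replicate 1 and the lowest to CML replicate 3, so that the CML group spanned the whole control group. The means were 3.67 ± 0.627 and 3.26 ± 0.789 CPM (SD, n = 4 each), and the log2 difference of −0.14 had a standard error of 0.15. AXIN2 rested on 44 to 76 reads per library, which gives a counting coefficient of variation of 12.7% in control cells against 17.1% observed.

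CTNNB1, the gene of β-catenin on chromosome 3 from 41199505 to 41240443, had 364, 356, 378 and 397 CPM in control cells and 369, 383, 382 and 381 CPM in CML-exposed cells. The CML libraries lay within the range of the control libraries. The means were 374 ± 17.8 and 379 ± 6.71 CPM (SD, n = 4 each), a log2 difference of 0.02 with a standard error of 0.035. TCF7L2, the TCF family gene among the 10, lies on chromosome 10 from 112950247 to 113167678. It had 29.5, 24.9, 27.5 and 28.9 CPM in control cells and 24.2, 25.3, 24.5 and 27.8 CPM in CML-exposed cells. Of the CML libraries 3 lay below 3 of the control libraries, but control replicate 2 and CML replicate 4 crossed over. The means were 27.7 ± 2.04 and 25.4 ± 1.61 CPM (SD, n = 4 each), and the log2 difference of −0.12 had a standard error of 0.065.

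Among the 10 genes the averages were higher with CML for 6 and lower for 4, and the median log2 difference was 0.03, compared with 0.01 over all genes and also 0.01 over the genes averaging 1 CPM or more. The difference was smaller than the pooled SD of the replicates for 8 of the 10 genes, all but DKK1 and TCF7L2. The share over all genes is not given here, so this count sets no gene apart. In the limma comparison across all genes with Benjamini-Hochberg adjustment, 158 genes passed an adjusted p of 0.3, the level the study used for its heatmap of this experiment, and that is 0.895% of the genes. Of these 119 (0.674% of the genes) were higher and 39 (0.221%) lower with CML, compared with 46 and 27 after centring each library on its median and 90 and 54 after quantile normalization. No gene passed 0.05, and 1352 genes had an unadjusted p under 0.05. DKK1 was the 1 member among the 158 genes, and it was not among the called genes after either of these rescalings. DKK1 was also the 1 member whose groups did not overlap, as held for 3.78% of all genes, with 2.5% higher throughout with CML. Since this contrast was in view when the genes were chosen, nothing is read from these counts.

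Over 14 other settings the difference of DKK1 stayed between 0.13 and 0.18 on the log2 scale. Settings that only added the replicate number as a block, dropped the variance trend or left out low genes could not move this difference. Without control replicate 4, the library with the largest influence on the other genes, it was 0.16 as before. The lowest value came from quantile normalization and the highest from leaving out CML replicate 3.

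**Figure D2:**
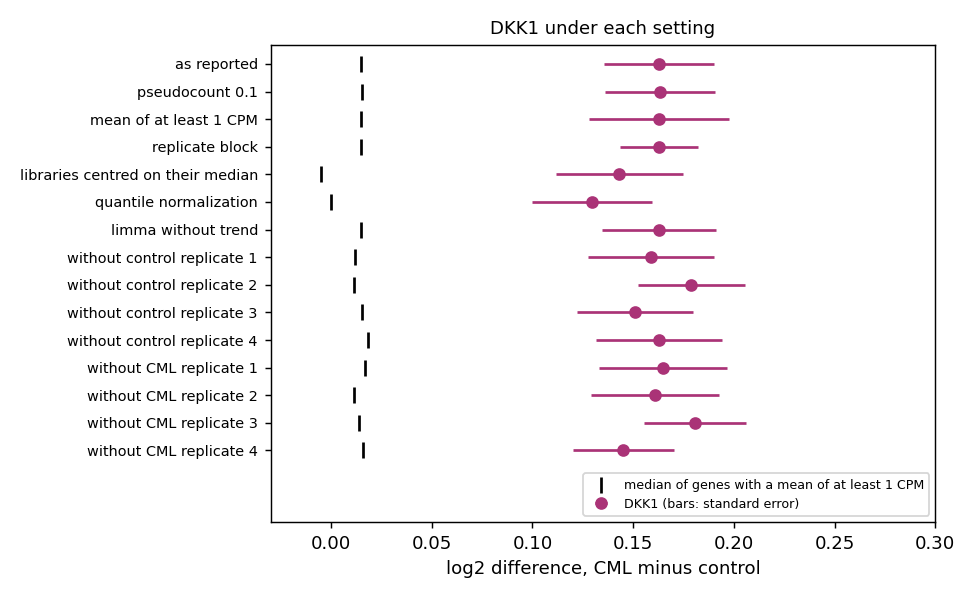
Log2 difference of DKK1 between CML-exposed and control cells (points, with the standard error as bars) under the reported setting and 14 others, with the median of all genes averaging 1 CPM or more as a black tick. DKK1 stays between 0.13 and 0.18, while the median of all these genes stays between 0.00 and 0.02.

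Levels can be compared between genes only when corrected for transcript length, and for this the CPM values were divided by the length in kb of each gene's canonical transcript in GENCODE 44. In control cells DKK1 was the most abundant of the 10 genes on this scale, with 132 ± 3.28 CPM per kb (SD, n = 4) for its short transcript of 1805 bases. CTNNB1 followed with 102 ± 4.86 CPM per kb (SD, n = 4), and the lowest control library of DKK1, at 129 CPM per kb, was above the highest of CTNNB1, at 108 CPM per kb. LRP5 came next with 14.5 ± 1.59 CPM per kb (SD, n = 4). WNT5B and AXIN1, with 8.71 and 8.36 CPM per kb, overlapped between libraries and could not be ordered. The same held for TCF7L2 and LRP6, with 6.79 and 6.69 CPM per kb. AXIN2, DKK3 and WNT5A stood lowest, with 0.862, 0.509 and 0.140 CPM per kb, and the control libraries of AXIN2 and DKK3 touched. When the length of all exons of a gene was used instead, DKK1, CTNNB1 and LRP5 kept ranks 1 to 3 with 107, 31.8 and 12.1 CPM per kb, LRP6 moved from rank 7 to rank 4, and DKK3 and WNT5A exchanged places.

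**Figure D3:**
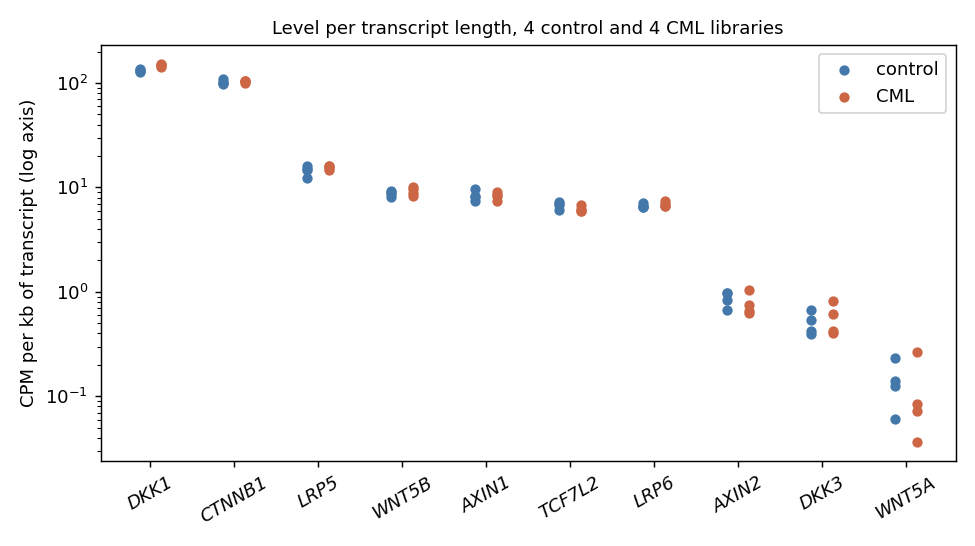
CPM per kb of canonical transcript on a log axis for the 10 genes, in the order of their control means, with 1 point per library. DKK1 (132 CPM per kb in control) and CTNNB1 (102 CPM per kb) stand apart from the other genes, the next of which is LRP5 at 14.5 CPM per kb.

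The relatives within the set were therefore present in unequal amounts. Per length of the canonical transcript, the level of DKK1 was 174 to 369 times that of DKK3 over the 8 libraries, and 669 to 1420 times when the length of all exons was used. WNT5B exceeded WNT5A by a factor between 34.7 and 273, or between 22.4 and 176 with the length of all exons, where WNT5A had 4 to 27 reads per library. AXIN1 exceeded AXIN2 by a factor between 7.95 and 14.4, or between 4.77 and 8.67 with the length of all exons. LRP5 exceeded LRP6 by a factor between 1.72 and 2.46, or between 1.46 and 2.09 with the length of all exons. The lowest value was in control replicate 4. The level of DKK1 per length was 19.8 ± 1.05 times that of LRP6 and 9.19 ± 1.11 times that of LRP5 in control cells (SD, n = 4 each). In CML-exposed cells these ratios were 21.6 ± 0.619 and 9.56 ± 0.740 (SD, n = 4 each). Both ratios overlapped between the groups. For LRP5 control replicate 4, at 10.8, was above every CML library. For LRP6 control replicate 2, at 21.0, was above CML replicate 4, at 20.8. With the length of all exons the control means of these ratios were 16.3 for LRP6 and 8.92 for LRP5.

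Around the 10 genes, 170 other genes of the pathway were sorted into 10 lists by role, and 147 of them had values in the table, 110 averaging 1 CPM or more. Of the 14 other extracellular antagonists listed, 7 had values, and 0 of these 7 reached 1 CPM. SFRP1, a secreted decoy for Wnt ligands, had the highest level of them with 0.129 CPM per kb in control cells, compared with the 132 CPM per kb of DKK1. KREMEN1 and KREMEN2, receptors that bind DKK1 together with LRP6, had 0.0646 and 0.0372 CPM per kb. DKK2 had 0.00408 CPM per kb, and SFRP2 and APCDD1 were listed at 0 in every library. Each of these 7 genes was thus below DKK1 in level per length.

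Among the other ligands 4 of 11 reached a mean of 1 CPM, and none was as abundant per length as WNT5B with its 8.71 CPM per kb. WNT7B had 1.97, WNT3 had 1.61, WNT9A had 0.583 and WNT2B had 0.317 CPM per kb in control cells. WLS, which carries Wnt proteins to the cell surface, had 46.4 CPM per kb, and PORCN, which attaches the lipid that Wnt proteins need, had 12.5. Of the receptors and coreceptors 12 of 14 reached a mean of 1 CPM. PTK7 and FZD6 were the most abundant of these per length, at 30.7 and 27.8 CPM per kb. Within the R-spondin module, which regulates Frizzled turnover, the receptor gene LGR4 had 9.28 CPM per kb. Of the TCF/LEF genes other than TCF7L2 (6.79 CPM per kb), LEF1 had 1.38, TCF7 had 0.405 and TCF7L1 had 0.179 CPM per kb.

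**Figure D4:**
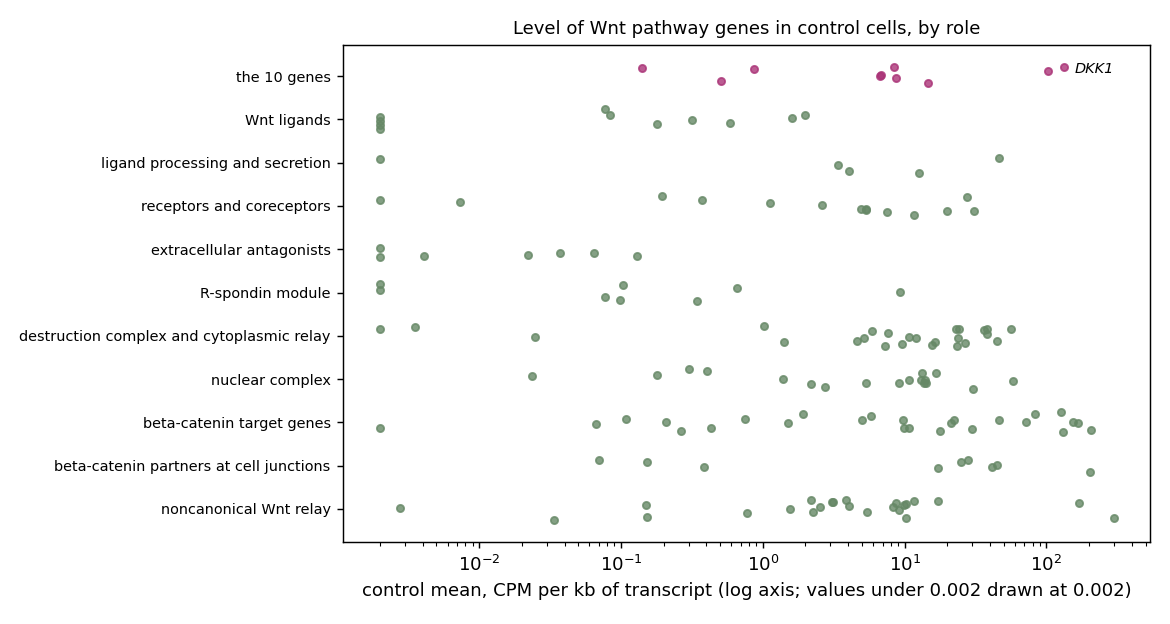
Control mean in CPM per kb of canonical transcript on a log axis for the 10 genes and for 147 other Wnt pathway genes in 10 lists by role, 1 point per gene. DKK1, at 132 CPM per kb, is far above every listed extracellular antagonist with values, the highest of which is at 0.129 CPM per kb.

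Of the 147 other pathway genes, 0 passed an adjusted p of 0.3 in limma, where 0.895% of all genes did. At an unadjusted p under 0.05 there were 11 of the 147 genes, or 7.48%, compared with 7.66% of all genes. Of the 110 averaging 1 CPM or more there were 10, or 9.09%, compared with 8.29% of all genes of that level. The 11 genes were divided into 6 that were higher and 5 that were lower with CML. The median log2 difference over the 110 genes averaging 1 CPM or more was 0.01, as over all genes of that level. The groups did not overlap for 4 of the 147 genes, or 2.72%, compared with 3.78% of all genes. All 4 averaged 1 CPM or more, where they made up 3.64% of the pathway genes, compared with 4.34% of all genes of that level. The 0 became 3 with the replicate number as a block in limma, 1 without control replicate 1 and 7 without control replicate 4.

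Genes that β-catenin is known to activate in other settings had small differences, more often higher than lower with CML. Of the 21 such genes averaging 1 CPM or more, 16 were higher and 5 lower on average, and their median log2 difference was 0.06, compared with 0.01 over all genes of that level. Of 26 such genes with values, 6 had an unadjusted p under 0.05, or 23.1% compared with 7.66% of all genes, and 0 passed an adjusted p of 0.3 in limma. Of these 6 genes 4 were higher and 2 lower with CML. The list was chosen with earlier results of these data known, and the share of all genes higher on average is not given here. Nothing is therefore read from the counts or the median of this list. FOSL1, a subunit of the AP-1 transcription factor, had 285 ± 8.996 CPM in control and 301 ± 4.54 CPM with CML (SD, n = 4 each), a log2 difference of 0.08 with no overlap (adjusted p = 0.488 from limma). MYC, CCND1 and BIRC5, named here after their values were seen, had log2 differences of 0.13, 0.06 and 0.17 (adjusted p = 0.549, 0.510 and 0.558 from limma). In the other direction, VEGFA, the gene of an angiogenic factor, had 459 ± 10.1 and 440 ± 6.66 CPM, also without overlap (SD, n = 4 each; log2 difference −0.06; adjusted p = 0.514 from limma). SOX9, a transcription factor gene, had 88.2 ± 1.90 and 83.1 ± 2.27 CPM (SD, n = 4 each; log2 difference −0.09; adjusted p = 0.441 from limma). SOX9 had the smallest adjusted p of all 147 genes. AXIN2, the target gene among the 10 that is most often used as a readout, had its log2 difference of −0.14 within the replicate spread.

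Of the receptors, FZD4 had 39.3 ± 2.14 CPM in control and 36.0 ± 1.05 CPM in CML-exposed cells (SD, n = 4 each), a log2 difference of −0.12 (adjusted p = 0.549 from limma). FZD6 had 104 CPM in both groups. LEF1 had the largest positive difference of the pathway genes with at least 1 CPM, with 4.94 ± 0.835 and 6.25 ± 0.919 CPM (SD, n = 4 each), a log2 difference of 0.29 (adjusted p = 0.684 from limma). RNF43, an inhibitor of Frizzled receptors, had the largest negative one at −0.25, from 1.54 ± 0.594 and 1.13 ± 0.442 CPM (SD, n = 4 each; adjusted p = 0.897 from limma). In the destruction complex and cytoplasmic relay 0 of 25 genes had an unadjusted p under 0.05, compared with 7.66% of all genes. TNKS2, a tankyrase gene whose product helps to remove AXIN proteins, had the smallest p of this list, with 147 ± 8.87 and 156 ± 2.39 CPM (SD, n = 4 each; log2 difference 0.09; adjusted p = 0.700 from limma). Of the 7 genes for β-catenin partners at cell junctions averaging 1 CPM or more, 6 were higher and 1 lower on average with CML. Their median log2 difference was 0.04, compared with 0.01 over all genes of that level, and this list too was chosen with earlier results known. Among them CTNNAL1 had 111 ± 5.28 and 120 ± 3.03 CPM without overlap (SD, n = 4 each; log2 difference 0.11; adjusted p = 0.494 from limma). In the noncanonical relay, PRICKLE2 had 15.4 ± 0.584 and 13.3 ± 1.06 CPM without overlap (SD, n = 4 each; log2 difference −0.21; adjusted p = 0.458 from limma).

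**Figure D5:**
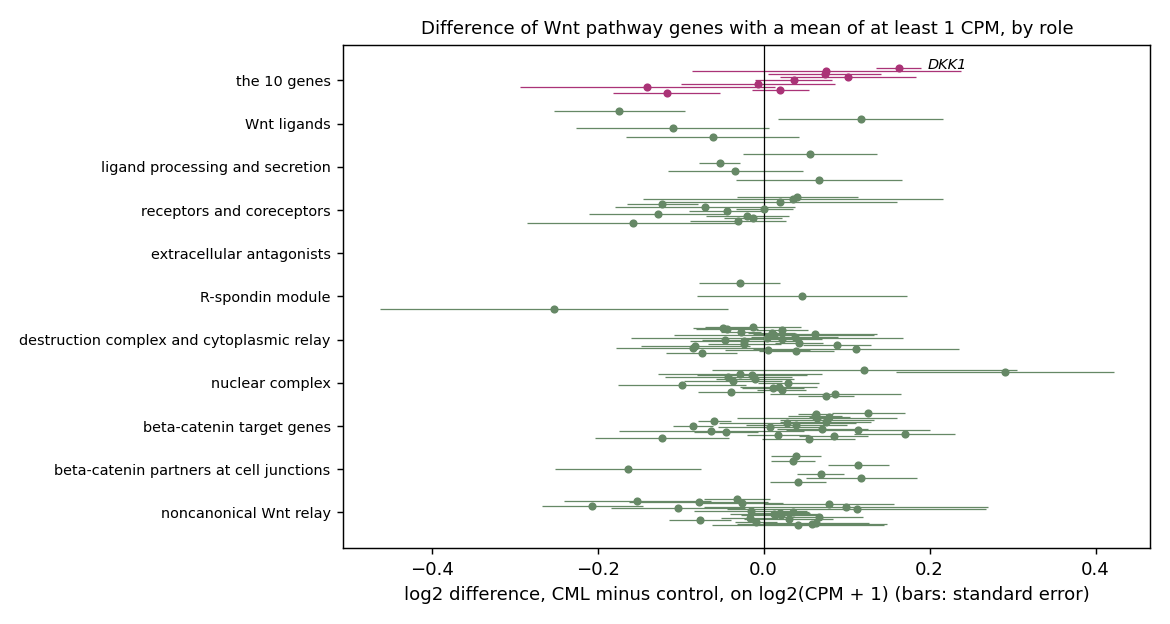
Log2 difference between CML-exposed and control cells on the log2(CPM + 1) scale, with the standard error as bars, for the genes averaging 1 CPM or more among the 10 genes (9 shown) and among the 10 role lists (110 shown). The points lie on both sides of 0 in each list that has points. Of the target genes 16 of 21 and of the junction genes 6 of 7 lie above 0, in lists chosen with earlier results known. The list of extracellular antagonists is empty because none of its genes with values reached 1 CPM.

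Among the genes whose profile over the 8 libraries was most like that of DKK1 were RPA1, ANKRD1, GTF2H3 and BNIP1. Likeness was the root mean square distance between the log2(CPM + 1) values of both genes, each centred on its own mean, over 13046 genes averaging 1 CPM or more. The distances of these 4 genes were 0.0230 for RPA1, 0.0301 for ANKRD1, 0.0322 for GTF2H3 and 0.0323 for BNIP1, where the median gene had 0.123. All 4 had higher values in every CML library than in any control library, a pattern that the choice by likeness to DKK1 favours. RPA1 had 88.2 ± 2.69 CPM in control and 98.3 ± 4.11 CPM in CML-exposed cells (SD, n = 4 each), and ANKRD1 had 607 ± 17.4 and 689 ± 12.02 CPM (SD, n = 4 each). Of the other members with at least 1 CPM, LRP6 was the closest to DKK1, with a distance of 0.0824 and rank 1645, and DKK3 was the farthest, with 0.246 and rank 12192.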

How the data were processed

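RNA-Seq values of 4 control and 4 CML libraries were used, grouped by their titles. The authors deposited CPM values, 1 column per library. The supplemental methods describe CPM scaled by edgeR's TMM factors, and the submitters' processing notes name edgeR and the build hg38. The same methods name a stranded library kit, Trimmomatic, and Tophat alignment to hg19, in a section that opens with human tumors and names another sequencer than the labels of these libraries. Since the build differs as well, which aligner and build made these values could not be settled. The counting tool and its strand setting are not given in the sources used here. The columns summed to between 986730 and 1014120. Of the values above 0, 84.3% to 85.5% corresponded to whole reads within 0.01 read, so no count test was run. The reads of all 10 genes were whole within 0.05 read in all 8 libraries.

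Rows with the same symbol were averaged (17681 rows, 17649 genes), and log2(CPM + 1) was compared with limma 3.58.1 in R 4.3.3 (variance trend, no covariates, Benjamini-Hochberg adjustment over all genes, level 0.3 with 0.05 beside it). The fit was run on simulated data with independent noise, which does not cover effects that many genes share in 1 library. The log2(CPM + 1) scale understates the change of low genes. TLE5 was matched by an older symbol. Gene positions and promoters came from RefSeq (GRCh38.p14), transcript lengths from GENCODE 44 models lifted to GRCh37, a length source added after the data were seen. Figures were drawn with matplotlib 3.10.9.

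The members and lists were chosen with earlier results of these data known. Named pathway genes were, in each list, those with an adjusted p under 0.3 and, at a mean of at least 1 CPM, the 2 with the smallest p and the 2 with the highest mean, besides the 5 genes nearest to DKK1 in profile (1 of which is not reported here) and the cell markers. Further genes given by level or difference were named after their values were seen. As alternatives, 0.1 was the pseudocount, genes averaging under 1 CPM were left out, and the other settings were the replicate number as a block, median centring, quantile normalization, limma without trend and each library left out.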

Additional observations from a re-analysis of the deposited data

Results flagged for a closer look

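Among 43 genes checked in both groups (86 groups of 4 libraries), 2 groups held a library far from the other 3, by a rule that chance meets in about 1 of 20 groups. CDC73, a nuclear cofactor gene of β-catenin, had 84.2 CPM in control replicate 4 and 76.1 to 76.9 CPM in the other control libraries. RAC1, a small GTPase gene of the noncanonical relay, had 422 CPM in control replicate 4 and 382 to 385 CPM in the other control libraries. Both lie in the same library. Of the 10 genes, 0 had such a library in either group.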

How the results depend on the processing

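Of 139 values of the 10 genes under 14 alternatives, 139 moved by less than the SD of the replicates, and 0 called differences changed direction. For most alternatives this was fixed beforehand. The block, limma without trend and the filter on low genes leave a difference unchanged, and leaving out 1 of 4 libraries cannot move it by that SD. Only the pseudocount, median centring and quantile normalization could have moved a value further. The sign of the small differences of DKK3, AXIN1 and CTNNB1 was kept in 13, 12 and 12 of the 14. The number of genes called across the table was 158 as reported, 73 after median centring, and between 20 (without CML replicate 2) and 690 (without control replicate 4) with each library left out. The number of the 10 genes called, 1 as reported, was 0 after median centring and 0 after quantile normalization, and between 0 and 1 with each library left out. It was 0 without control replicate 1, control replicate 3, CML replicate 1 or CML replicate 2. With the replicate number as a block it stayed at 1, and the number of other pathway genes called was 3 (MYC, SOX9 and CELSR1). With each library left out that number was between 0 and 7. The cause of these changes was not tested. Same-numbered libraries of the groups had correlations of their deviations between −0.0645 and 0.334, and differently numbered ones between −0.304 and 0.113. Of the 8 libraries, 4 correlated best with their own number. Whether the numbers pair the samples could not be settled, and the main fit left them out. The block raised the number of genes called across the table from 158 to 189. Depth limits WNT5A, DKK3 and AXIN2, with 4 to 76 reads per library.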
